A study of Mus musculus with 30 samples.

Results

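Genes that set or keep astrocyte identity, or that carry the Notch signal, were followed through sorted spinal cord cells of mice with experimental autoimmune encephalomyelitis (EAE), a T cell driven model of multiple sclerosis. They are the transcription factors Sox9, Nfia and Nfib, the inhibitors of DNA binding Id2, Id3 and Id4, the Notch target genes Hes1 and Hes5, the receptor Notch1 and the growth factor receptor Fgfr3. The members were found by gene symbol among the protein-coding genes, which gave 10 of the 30952 genes in the table, each matched once. The rule used no expression value, but the members were chosen with earlier results of these data known.

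The libraries came from female C57BL/6 mice (C57BL/6J in the study's methods) that were 8 to 10 weeks old at immunization. Naive mice were not immunized and were not dosed. EAE-vehicle mice were immunized with a peptide of myelin oligodendrocyte glycoprotein and, after the first clinical signs, received 20% Captisol by oral gavage 2 times a day for 3 days. By the study's methods the peptide was given in complete Freund's adjuvant, and pertussis toxin was injected as well. EAE-RIPK1inh-1 mice were immunized in the same way and received, on the same schedule, the RIPK1 kinase inhibitor RIPK1inh-1 at 50 mg/kg. Astrocytes were sorted from spinal cord as GLAST+ cells lacking CD11b, CD45 and CD140a, and microglia as CD11b+ CX3CR1+ cells with intermediate CD45. Each cell type gave 4 naive, 6 EAE-vehicle and 5 EAE-RIPK1inh-1 libraries, 30 in all, and 1 mouse gave 1 library of a cell type. By the study's description both cell types came from the same EAE mice, and the labels do not say which astrocyte and microglia libraries share a mouse. Levels are log2 FPKM (sequenced fragments scaled to transcript length and library size) after quantile normalization, so they are scaled per gene length and every library has the same set of values. The depth of the libraries is unknown. The number of genes with signal, read from how the table orders genes without reads, ran from 6728 to 22981 in astrocyte libraries and from 8710 to 20398 in microglia libraries.

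During spinal cord development Sox9 switches progenitors from making neurons to making glia and induces Nfia, and both proteins then act together on early astrocyte genes. Nfib belongs to the same nuclear factor I family as Nfia. Notch1 is a membrane receptor that is cut by ADAM proteases and then by γ-secretase when a neighboring cell presents a ligand, and its freed intracellular domain joins the DNA-binding protein RBPJ to turn on Hes1 and Hes5, repressors that hold back neuronal differentiation. Id proteins lack a DNA-binding region and take E proteins away from proneural factors; bone morphogenetic proteins (BMPs) induce them. Fgfr3 is the fibroblast growth factor receptor typical of astrocytes and their precursors.

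The promoters of 7 members were in the reference promoter table used here (RefSeq, GRCm38.p6), and those of Sox9, Nfib and Hes1 were not. Their transcript starts were not always the annotated gene start. The distance was 0 bases for Hes5, 50 for Fgfr3, 112 for Id4 and 325 for Id3. It was 1048 for Id2, 12841 for Notch1 and 190791 for Nfia. Hes5 is shown because it is the classical RBPJ target of the set, and Id4 because it was the other member whose window held the RBPJ core TGGGAA and was also 1 of the members that differed with the inhibitor. Each line gives the 250 bases before the transcript start, 5′ to 3′ on the gene's strand, with matches to TGGGAA on either strand (TTCCCA on the reverse strand) in capitals. Both genes are on the plus strand, and the windows are chr4:154960673-154960922 and chr13:48260866-48261115.
Hes5: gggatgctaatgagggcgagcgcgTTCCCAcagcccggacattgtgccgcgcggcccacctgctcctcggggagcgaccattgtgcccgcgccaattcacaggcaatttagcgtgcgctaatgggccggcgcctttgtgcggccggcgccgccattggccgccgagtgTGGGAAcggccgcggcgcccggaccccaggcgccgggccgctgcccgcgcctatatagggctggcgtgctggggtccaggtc
Id4: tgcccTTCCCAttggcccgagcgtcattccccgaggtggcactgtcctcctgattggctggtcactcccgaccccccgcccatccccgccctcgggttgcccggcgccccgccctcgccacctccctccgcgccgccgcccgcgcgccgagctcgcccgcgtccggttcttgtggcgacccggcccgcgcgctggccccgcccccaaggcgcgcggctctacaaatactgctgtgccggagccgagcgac
In Hes5 the core lay at bases -82 to -77 on the plus strand and at -226 to -221 on the minus strand, counted from the start. In Id4 it lay at -245 to -240 on the minus strand. The core was present in 21.6% of the 32851 windows of this length in the table. The N-box CACNAG, which HES repressors bind, was found in the windows of Id4 and Notch1 against 36.7% of all windows, and the nuclear factor I half-site TTGGC in those of Id2, Id3, Id4 and Hes5 against 41.5%. Both strands were searched and no match overlapped a match of another motif. A match is a run of letters and not a measured binding site.

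In naive astrocytes the set spanned the range from one of the most abundant transcripts to barely detected ones. By the files' coordinates (GRCm38) the fate factors lie at chr11:112782224-112787760 (Sox9, plus strand), chr4:97772734-98118874 (Nfia, plus) and chr4:82290173-82705750 (Nfib, minus). The Id genes lie at chr12:25093799-25097140 (Id2, minus), chr4:136143497-136145755 (Id3, plus) and chr13:48261228-48266026 (Id4, plus). The Notch genes lie at chr16:30064384-30067796 (Hes1, plus), chr4:154960923-154962371 (Hes5, plus) and chr2:26457903-26516663 (Notch1, minus), and Fgfr3 at chr5:33721674-33737068 (plus). Id2 was highest, at 9.70 ± 0.44 log2 FPKM (SD, n = 4), above 99.7% of protein-coding genes. Fgfr3 (7.08 ± 2.12), Sox9 (6.36 ± 0.65), Id3 (6.16 ± 1.08), Nfia (5.34 ± 0.76) and Nfib (4.91 ± 0.28) followed. Id4 (3.43 ± 0.51), Hes1 (3.41 ± 2.36), Notch1 (3.02 ± 2.04) and Hes5 (1.42 ± 1.08) were lowest. Id2 was higher than the next gene in every naive library and so was Nfib, whereas each other pair of neighbors in that order overlapped from library to library. Sox9, Nfia, Nfib, Id2, Id3 and Id4 had signal in all 15 astrocyte libraries, Fgfr3 in 14, Notch1 in 13, Hes1 in 7 and Hes5 in 5.

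**Figure D1:**
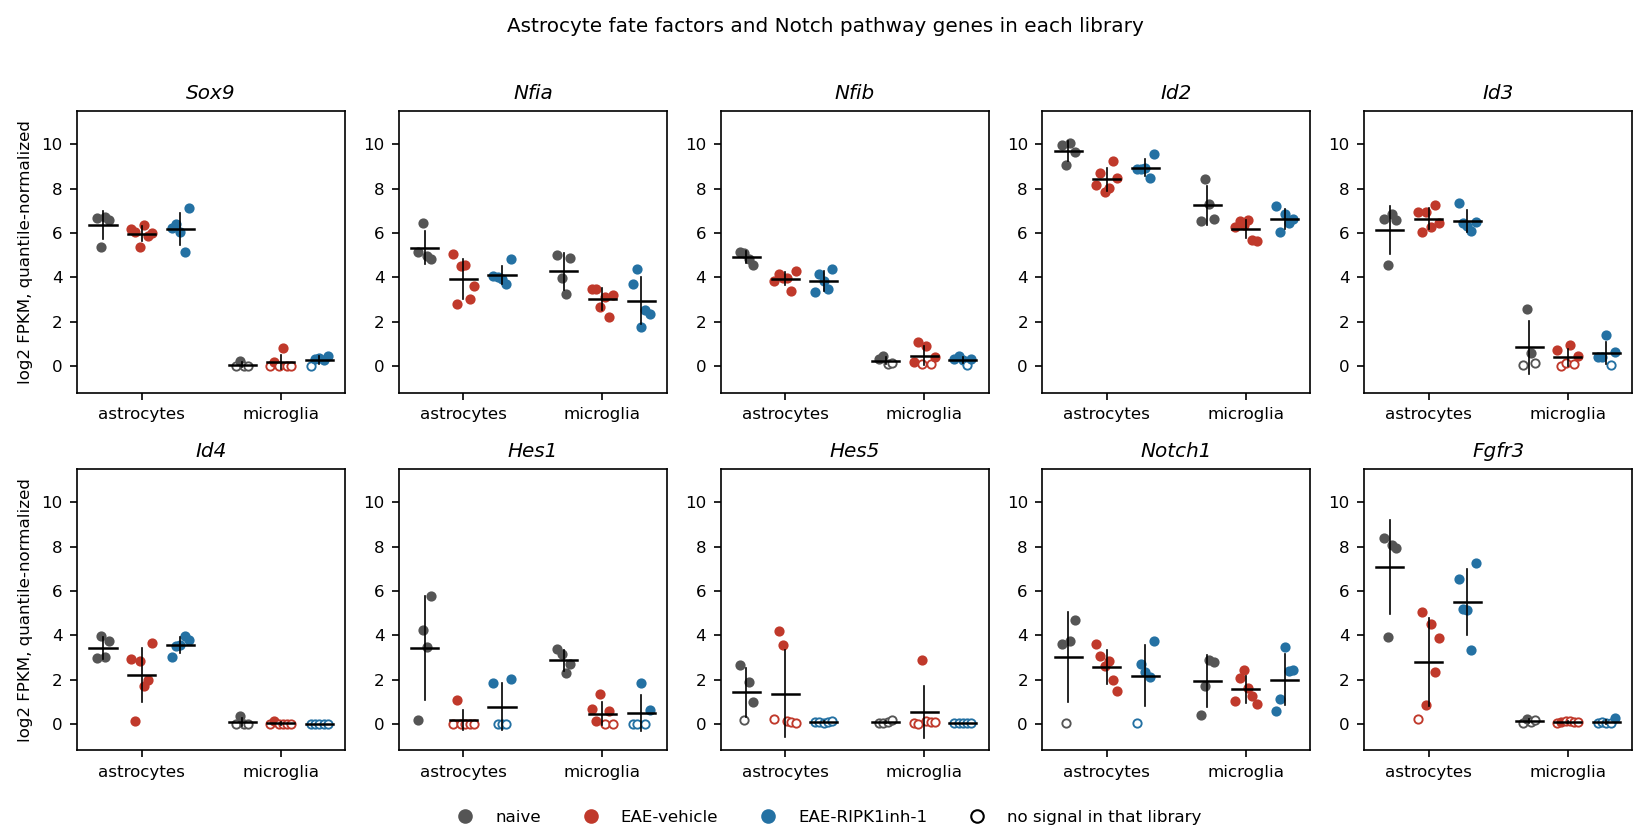
Level of each member (log2 FPKM, quantile-normalized) in every library of astrocytes and microglia, with points for libraries, horizontal bars for group means and vertical lines for 1 SD; open points mark libraries without signal for that gene. Sox9, Nfib, Id3, Id4 and Fgfr3 stand well above microglia in naive astrocytes, and the EAE-vehicle points of Nfib all lie below the naive ones.

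Most of the set separated the cell types. A gene was called when its fold difference exceeded 1.5 and its limma p was below 0.05, the thresholds of the study. Of the 10 members, 6 were called higher in astrocytes than in microglia in naive mice, where 9.64% of all genes were. In log2 units the difference was 6.95 ± 0.91 (SE) for Fgfr3, 6.31 ± 0.37 for Sox9, 5.32 ± 0.51 for Id3, 4.67 ± 0.32 for Nfib, 3.34 ± 0.47 for Id4 and 2.45 ± 0.37 for Id2, with adjusted p from 2.24e-13 to 1.26e-05. In all, 6 were called in EAE-vehicle mice (10.0% of all genes) and 7 in EAE-RIPK1inh-1 mice (10.0%), the added one being Nfia at 1.16 ± 0.50 with adjusted p = 0.151. Hes1, Hes5 and Notch1 were called in none of these comparisons. Notch1 had signal in all 15 microglia libraries, Hes1 in 10, and Hes5 in 1. In naive mice the astrocyte markers followed the sort. The mean of 8, among them Aqp4, Gja1 and Aldh1l1, was 8.55 to 9.37 in astrocyte and 0.98 to 1.53 in microglia libraries.

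Other cell types were not absent from the astrocyte libraries, and they moved with disease. The mean of the 8 astrocyte markers ran from 8.55 to 9.37 in naive, 6.98 to 8.52 in EAE-vehicle and 7.95 to 9.17 in EAE-RIPK1inh-1 libraries, and 5 of the 8 were called lower and 1 higher in EAE-vehicle than in naive. Myelin genes of oligodendrocytes averaged 6.19 to 7.39 in naive, 6.38 to 9.91 in EAE-vehicle and 7.81 to 9.19 in EAE-RIPK1inh-1 libraries, with 4 of 7 called higher in EAE-vehicle. The median over EAE-vehicle libraries was 9.02 for the myelin genes and 7.63 for the astrocyte markers. Over EAE-RIPK1inh-1 libraries it was 8.48 and 8.21, and over naive ones 6.47 and 9.25. T cell markers went from 0.17 to 0.98 in naive to 0.94 to 5.63 in EAE-vehicle libraries, with 6 of 8 called higher. Microglia markers (4 of 10) and monocyte and neutrophil markers (5 of 8) were also called higher, and Cd3d, Lck, Cd2 and Aif1 had no signal in any naive astrocyte library. Of the remaining lists, 1 of 6 neuron markers was called higher and 1 of 5 pericyte markers lower, and no marker of oligodendrocyte precursors, endothelial cells, ependymal cells or erythrocytes was called. Neuron markers averaged 3.38 to 4.17 in naive, 3.94 to 5.23 in EAE-vehicle and 3.05 to 3.87 in EAE-RIPK1inh-1 libraries. Hemoglobin and other erythrocyte markers varied widely, from a mean of 0.079 to 8.67 among astrocyte libraries. Between EAE-RIPK1inh-1 and EAE-vehicle astrocytes, 2 of 8 astrocyte markers were called higher, 1 of 6 neuron markers and 1 of 5 ependymal markers lower, and none of the other lists. The part of the other cell types in the members' differences was not tested. A single naive library, replicate 4, held endothelial markers at a mean of 4.05 against 0.18 to 0.57 in the other naive ones. In bulk libraries fewer astrocytes and less RNA of a gene per astrocyte cannot be told apart. Naive replicate 2 stood apart, with 8815 genes with signal and the lowest Sox9, Id3 and Fgfr3 of its group, and EAE-vehicle replicate 1 had the fewest genes with signal, so that a gene without reads there could be listed at up to 2.74.

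**Figure D2:**
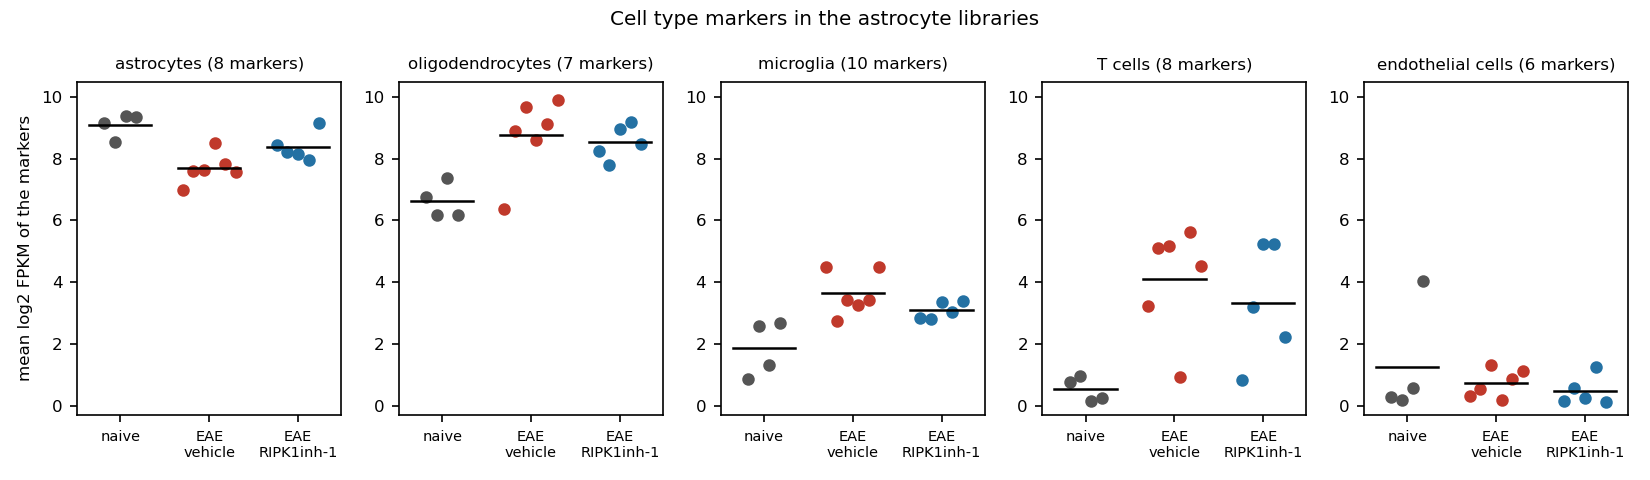
Mean log2 FPKM of the markers of 5 cell types in each astrocyte library (points) with the group mean (bar), by treatment. Astrocyte markers lie between 6.98 and 8.52 in EAE-vehicle libraries against 8.55 to 9.37 in naive ones, while oligodendrocyte, microglia and T cell markers lie mostly higher.

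Comparing EAE-vehicle with naive astrocytes asks how the set differed between immunized, vehicle-dosed mice and untreated ones. Disease, adjuvant, toxin and vehicle dosing cannot be told apart in this comparison. Of the 10 members, 5 fell (Fgfr3, Hes1, Nfia, Id2 and Nfib), where 4.01% of all genes did, and none rose, where 2.69% did. Calls were more frequent among the 11243 genes that averaged 1 log2 FPKM or more, where 1014 fell and 779 rose. The median difference over the 10 members was -1.09 and 9 were below 0, against a median of 0.03 over all genes tested. No member reached an adjusted p below 0.05; the lowest, of Id2, was 0.0742, while 178 of 30718 genes did.

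Among the fate factors, Nfib was at 5.16, 5.10, 4.83 and 4.56 in the naive astrocyte libraries and between 3.40 and 4.27, with a median of 3.98, in the EAE-vehicle ones. The groups did not overlap, as was true of 1.28% of all genes in that direction, and Nfib was the one member of which it was true. The difference was -0.97 ± 0.37 (SE; adjusted p = 0.478; exact two-sided permutation p = 0.00952, where 6 against 4 libraries can give no less than 0.00476). Nfia, the partner of Sox9, was at 5.12, 6.47, 4.95 and 4.82 in naive and from 2.79 to 5.07, median 4.05, in EAE-vehicle libraries. All 6 EAE-vehicle values lay below the naive mean, and the highest of them overlapped the naive range. Nfia fell by 1.41 ± 0.52 (adjusted p = 0.455, exact permutation p = 0.0286); without naive replicate 2, its highest library, the difference was -1.04 and was no longer called. Sox9, in contrast, was at 6.70, 5.39, 6.74 and 6.61 in naive and from 5.36 to 6.38, median 6.03, in EAE-vehicle libraries, a difference of -0.38 ± 0.40 that was not called (adjusted p = 0.837). It was -0.75 and called when the library with the fewest genes with signal was left out of each group, which removed naive replicate 2.

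Among the Id genes, Id2 was at 9.97, 9.08, 10.06 and 9.68 in naive and from 7.86 to 9.26, median 8.34, in EAE-vehicle astrocytes. A single EAE-vehicle library reached into the naive range and the others lay below it. Id2 fell by 1.27 ± 0.29 (adjusted p = 0.0742, exact permutation p = 0.019). Id4 was at 2.98, 3.98, 3.01 and 3.74 in naive and from 0.14 to 3.65, median 2.42, in EAE-vehicle libraries, with a difference of -1.22 ± 0.60 that was not called (adjusted p = 0.776, exact permutation p = 0.0476). It was called lower with a detection covariate (-1.21), with no trend (-1.22), with quality weights (-1.04) and with the replicate block (-1.54). Id3 differed by 0.50 ± 0.45 (adjusted p = 0.835), from 6.65, 4.54, 6.86 and 6.58 in naive to between 6.03 and 7.27, median 6.70, in EAE-vehicle libraries; the sign of this difference rested on naive replicate 2, without which it was -0.04.

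In the Notch pathway, Hes1 was at 0.18, 4.24, 3.48 and 5.76 in naive astrocytes and was listed at 0 or next to it in 5 of the 6 EAE-vehicle libraries, with 1.09 in the remaining one. It fell by 3.23 ± 0.87 (adjusted p = 0.149, exact permutation p = 0.019). The spread among naive libraries was wide, and the highest value was in replicate 4, the library with endothelial markers; without it the difference was -2.45 and was still called. The part of these markers in the level was not tested further. Hes5 had signal in 3 of 4 naive libraries, at 2.65, 1.89 and 0.97, and in 2 of 6 EAE-vehicle libraries, at 4.20 and 3.55. Its difference of -0.05 ± 0.87 was not called. Notch1 itself was at 3.59, 0.05, 3.74 and 4.70 in naive and from 1.46 to 3.59, median 2.73, in EAE-vehicle libraries, a difference of -0.43 ± 0.87 (adjusted p = 0.957), which was -1.43 without naive replicate 2 and 0.13 without replicate 4. Without the library of fewest genes with signal in each group it was -1.63 and was called.

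Fgfr3 showed the largest difference of the set. It was at 8.39, 3.91, 8.09 and 7.93 in naive libraries and from 0.23 to 5.03, median 3.09, in EAE-vehicle libraries. The naive libraries 1, 3 and 4 lay above all EAE-vehicle ones, and replicate 2 lay among them. Fgfr3 fell by 4.27 ± 1.12 (adjusted p = 0.134, exact permutation p = 0.0286), and the difference ranged from -5.33 to -3.76 when each library was left out in turn. The lowest value, in EAE-vehicle replicate 1, was a gene without signal in the library whose floor was highest. Fgfr3 shares 998 exon bases with G630022F23Rik on the other strand, and Id4 shares 171 with Gm49291; reads of such pairs cannot be told apart in libraries that do not mark strand.

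Set against the astrocyte markers, which fell too, the picture divided. When each library was shifted to the same mean of the 8 markers, a scaling chosen after seeing the data that moved every gene by 1.42 upward in EAE-vehicle relative to naive, Fgfr3 (-2.86) and Hes1 (-1.82) were still called lower. The differences of Nfia (0.003), Id2 (0.14) and Nfib (0.45) then turned to or above 0 and were not called, and Id3 (1.91) was called higher. Hes1 was at or near 0 in most EAE-vehicle libraries and cannot fall further on this scale. The shift is the same for every gene, so this scaling says only which falls were larger or smaller than that of the marker mean.

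**Figure D3:**
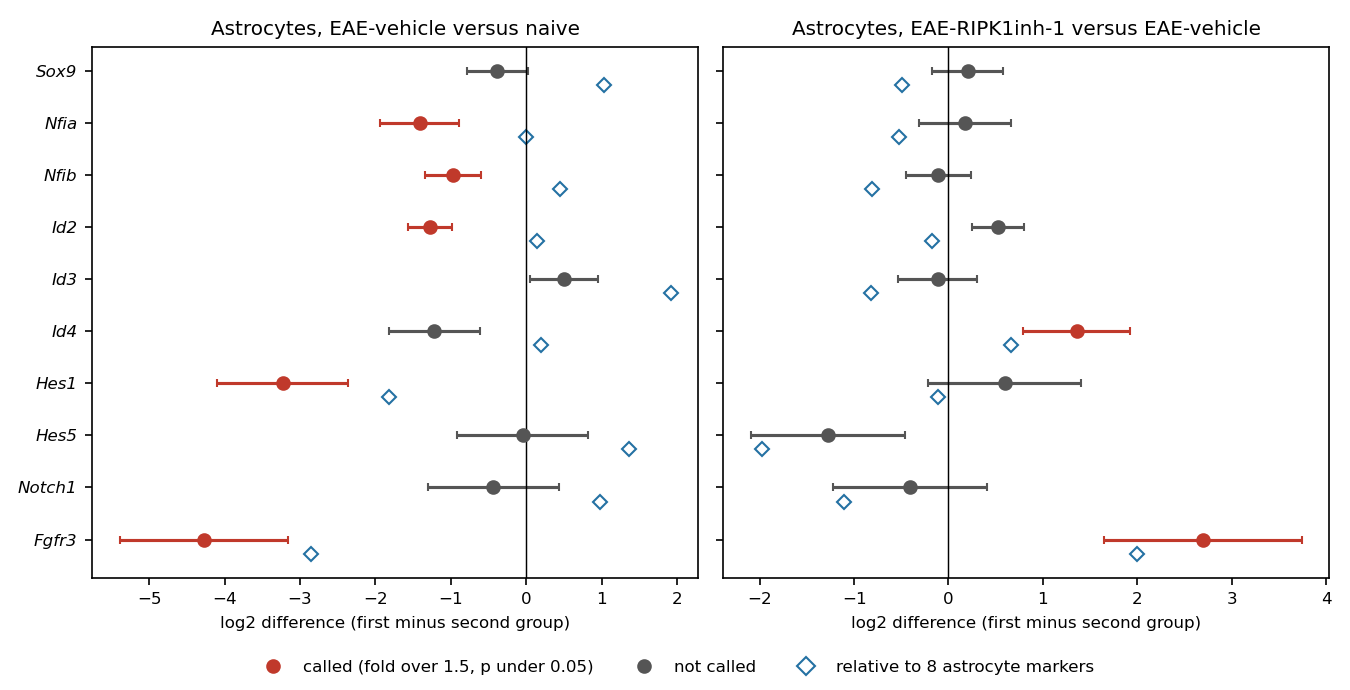
Log2 difference of each member with its standard error in astrocytes, EAE-vehicle minus naive (left) and EAE-RIPK1inh-1 minus EAE-vehicle (right); red points passed the thresholds, and open diamonds give the difference after scaling libraries to the astrocyte markers. Fgfr3 lies at -4.27 on the left and 2.69 on the right, and its diamonds at -2.86 and 1.99 have the same signs.

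Comparing EAE-RIPK1inh-1 with EAE-vehicle astrocytes asks how the set differed between inhibitor-dosed and vehicle-dosed mice with EAE. The study reports that this inhibitor lessened EAE severity. An action of the inhibitor on astrocytes, milder disease and a different cell makeup cannot be told apart in this comparison. Of the 10 members, 2, Fgfr3 and Id4, were higher, where 1.84% of all genes were, and none was lower, where 1.18% were. The adjusted p was 0.840 for both; no gene in the table passed 0.05 by limma's adjusted p in this comparison, against 998 at an unadjusted p below that value. Here too calls were more frequent among the 11243 genes that averaged 1 log2 FPKM or more, where 396 were higher and 304 lower. No member's groups were separate, as were those of 0.107% of all genes in the upward direction.

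Fgfr3 was at 6.55, 5.18, 5.16, 3.35 and 7.26 in EAE-RIPK1inh-1 libraries against the 0.23 to 5.03 of EAE-vehicle ones. All 5 lay above the EAE-vehicle mean and 1 fell inside the EAE-vehicle range. The rise was 2.69 ± 1.05 (exact permutation p = 0.0346, where 5 against 6 libraries can give no less than 0.00216). The call was lost in 4 of 15 fits that left out 1 library: without EAE-vehicle replicate 1 or 3 or EAE-RIPK1inh-1 replicate 1 or 5, with differences down to 2.18. It was also lost without the library of fewest genes with signal in each group (1.74) and with the replicate block (2.90). Id4 was at 3.02, 3.52, 3.56, 3.96 and 3.79 with the inhibitor against 0.14 to 3.65 without it. The values with the inhibitor were tightly grouped, and a single EAE-vehicle library, at 3.65, reached among them. Id4 rose by 1.36 ± 0.57 (exact permutation p = 0.0216), and the call was lost without EAE-vehicle replicate 4 or EAE-RIPK1inh-1 replicate 4 or 5. Relative to the astrocyte markers, whose mean was 0.70 higher with the inhibitor, Fgfr3 was still called (1.99) and Id4 was not (0.66).

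Of the other members, Id2 was at 8.90, 8.87, 8.95, 8.47 and 9.56 with the inhibitor, all above the EAE-vehicle mean of 8.42, and its difference of 0.53 ± 0.27 was not called (exact permutation p = 0.0952). Hes1 had signal in 2 of 5 libraries, at 1.84 and 2.05, a difference of 0.59 ± 0.81. Hes5 was without signal in all 5, at -1.28 ± 0.82 relative to EAE-vehicle. Sox9 (0.20 ± 0.38), Nfia (0.18 ± 0.49), Nfib (-0.11 ± 0.34), Id3 (-0.12 ± 0.42) and Notch1 (-0.41 ± 0.82) had differences smaller than 1 SE.

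Against naive astrocytes, 4 members were lower in EAE-RIPK1inh-1 astrocytes, where 2.64% of all genes were: Hes1 (-2.64 ± 0.90), Nfia (-1.24 ± 0.54), Nfib (-1.08 ± 0.38) and Id2 (-0.75 ± 0.30), with adjusted p from 0.719 to 0.897. Calls were again more frequent among the 11243 genes that averaged 1 log2 FPKM or more, where 602 were lower. The groups did not overlap for Nfia, Nfib and Hes5, against 0.902% of all genes, and Hes5 itself was not called at -1.32 ± 0.91. For Hes5 the separation was one of floor values, since it had no signal in any of the 5 EAE-RIPK1inh-1 libraries (0.056 to 0.14) or in naive replicate 2 (0.16). Fgfr3 differed from naive by -1.58 ± 1.16 and Id4 by 0.14 ± 0.63, neither of which was called. The Fgfr3 difference was called lower without naive replicate 2 (-2.64), with quality weights (-2.57) and without the library of fewest genes with signal in each group (-3.08). Sox9 (-0.18 ± 0.42), Id3 (0.38 ± 0.47) and Notch1 (-0.84 ± 0.91) were not called, although Notch1 was with quality weights (-1.59) and without the libraries of fewest genes with signal (-2.22). The Hes1 call rested on naive replicate 4, without which it was lost at -1.85. The Nfia call was lost without naive replicate 2 (-0.86) or any of EAE-RIPK1inh-1 replicates 1 to 4, and that of Id2 without naive replicate 1 or 3 or EAE-RIPK1inh-1 replicate 4; that of Nfib held in all 15 such fits. This comparison shares its naive libraries with the EAE-vehicle comparison, and its treated libraries with the inhibitor comparison, so these comparisons are not independent.

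In microglia, the reference cell type, 3 of 10 members fell in EAE-vehicle mice, where 5.86% of all genes did. Hes1 was at 3.38, 3.14, 2.30 and 2.71 in naive microglia and from 0 to 1.33, median 0.35, in EAE-vehicle microglia, with every naive library above every EAE-vehicle one. The difference of -2.43 ± 0.43 was the one change within a cell type in the set that held after adjustment (adjusted p = 0.0041, exact permutation p = 0.00952). Id2 fell from 7.24 ± 0.87 (SD, n = 4) to 6.19 ± 0.42 (SD, n = 6), a difference of -1.05 ± 0.36 (SE; adjusted p = 0.146), which was -0.65 without naive replicate 2. Nfia fell from 4.27 ± 0.84 to 3.02 ± 0.51, a difference of -1.25 ± 0.51 (SE; adjusted p = 0.261), and lost its call without naive replicate 1 or 4 or EAE-vehicle replicate 5. The other 7 members were not called, with differences from -0.45 (Id3) to 0.45 (Hes5). None was called between EAE-RIPK1inh-1 and EAE-vehicle microglia, where the differences ran from -0.48 (Hes5) to 0.45 (Id2). The mean of the 10 microglia markers was 11.17 to 11.72 in naive and 9.46 to 10.01 in EAE-vehicle microglia libraries. Monocyte and neutrophil markers averaged 1.97 to 7.05 in naive and 2.51 to 6.99 in EAE-vehicle ones. Microglia libraries were not scaled to markers, and the part of these levels in the members' falls was not tested.

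Whether the effects differed between the cell types was tested as an interaction over all 30 libraries. The EAE effect was lower in astrocytes than in microglia for 2 members, where it was for 4.97% of all genes: Fgfr3 (-4.23 ± 1.18, adjusted p = 0.0821) and Nfib (-1.19 ± 0.42, adjusted p = 0.242). Both were at or near 0 in microglia and had little room to fall there. For Hes1 the EAE effect differed by -0.80 ± 0.96, and for Id2 and Nfia by -0.22 ± 0.47 and -0.16 ± 0.73, none of which was called. The differences of the remaining members, from -1.15 (Id4) to 0.95 (Id3), were not called either. The inhibitor effect was higher in astrocytes for 2 members, where it was for 1.66% of all genes: Fgfr3 (2.69 ± 1.11) and Id4 (1.38 ± 0.57), both with adjusted p = 0.948, and both again near 0 in microglia. The other members' differences ran from -0.85 (Notch1) to 0.55 (Hes1). These fits treated the astrocyte and microglia libraries as independent, although those of EAE mice came from the same animals. The Fgfr3 call was lost without EAE-RIPK1inh-1 astrocyte replicate 5.

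Around the receptor, more of the called Notch pathway genes fell than rose in EAE-vehicle astrocytes, as also held over all genes. In EAE 4.01% of all genes were called lower and 2.69% higher, and with the inhibitor 1.18% and 1.84%. These shares stand beside every list count from here on. They were larger among the 11243 genes that averaged 1 log2 FPKM or more. There 1014 were called lower and 779 higher in EAE, and 304 and 396 with the inhibitor. No gene of any list reached an adjusted p below 0.05 in the EAE or the inhibitor comparison. Relative to the astrocyte markers, each EAE difference given for the listed genes is higher by 1.42 and each inhibitor difference lower by 0.70. That turns the sign of EAE falls and inhibitor rises smaller than the shift. Ligands were scarce: of 4 tested, Jag1 was highest in naive astrocytes at 2.21 ± 1.39 and none was called. Of the 4 receptors Notch2, at 4.13 ± 0.37 in naive, fell by 1.49 ± 0.70 and was the most abundant. Of 15 genes that mature or cut the receptor, 4 fell and 2 rose, with a median difference of -0.72. Aph1a (-2.77 ± 0.64, adjusted p = 0.0782) and Aph1b (-2.52 ± 0.56, adjusted p = 0.0661), subunits of γ-secretase, had the lowest p of these, and the fucosyltransferase Pofut1 fell by 1.43 ± 0.58. Psenen, another subunit and the most abundant of the list at 6.23 ± 0.60, differed by 0.09. The glucosyltransferase Poglut1 rose by 2.22 ± 0.89, and the glycosyltransferase Mfng, listed at 0 in every naive library, was at 2.74 ± 2.18 in EAE-vehicle; Mfng was at 4.88 ± 1.58 in naive microglia. All of these fell short of 0.05 after adjustment.

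Both Aph1 genes rose again with the inhibitor. Aph1b was at 3.73 ± 0.35 in naive, 1.21 ± 0.96 in EAE-vehicle and 3.88 ± 0.72 in EAE-RIPK1inh-1 astrocytes, a rise of 2.67 ± 0.53 (adjusted p = 0.840). Aph1a was at 4.02 ± 0.73, 1.25 ± 1.28 and 3.01 ± 0.41, a rise of 1.75 ± 0.60. They were the 2 genes called of these 15, and the list's median was 0.50 against -0.03 over all genes. The EAE-vehicle libraries enter both differences, so the fall and the rise are not independent measurements.

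Of 9 genes for ligand endocytosis and receptor turnover, 2 fell in EAE, the Deltex ubiquitin ligases Dtx1 (-2.81 ± 0.96) and Dtx3 (-1.22 ± 0.53), with a list median of -0.40. Dtx3 was the most abundant of them in naive astrocytes at 6.12 ± 0.39. With the inhibitor Dtx4 fell by 1.94 ± 0.82. Of 6 nuclear partners of Notch analysed, none was called in EAE, and with the inhibitor Rbpj, the DNA-binding partner of the receptor, rose by 1.67 ± 0.56 while the histone demethylase Kdm5a, most abundant of the list in naive at 3.61 ± 1.17, fell by 1.47 ± 0.49. Of the 6 target genes Hes1 was the one called in EAE and none was called with the inhibitor; Hey1, the most abundant at 5.56 ± 0.29 in naive astrocytes, differed by -1.04 in EAE.

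Among FGF genes, 5 of 17 fell in EAE (4.01% of all genes) and none rose (2.69%), with a list median of -1.11. Beside Fgfr3 these included the receptor Fgfr2 (-2.57 ± 0.99) and the feedback inhibitor Spry2 (-1.29 ± 0.47), which FGF signaling induces. With the inhibitor, Fgfr3 was called higher and the factor Etv1 fell by 1.83 ± 0.56, and Fgfr2 differed by -0.01 ± 0.93. In the BMP list, which holds the signals that induce Id genes, the receptor Bmpr1b fell by 2.75 ± 0.83 in EAE and rose by 1.70 ± 0.78 with the inhibitor, and the mediator Smad4 rose by 1.55 ± 0.71 in EAE; these were the genes called of 18. Of the 3 E proteins that Id factors bind, Tcf12 fell by 1.77 ± 0.73 in EAE and Tcf4, the most abundant at 5.56 ± 1.24, differed by 0.38.

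Other fate factors split in EAE. Of 16 tested, Sox8, a relative of Sox9, fell by 2.77 ± 0.91 (limma adjusted p = 0.323). Hopx rose by 1.40 ± 0.44 (adjusted p = 0.3) and Stat3, the effector of reactive astrogliosis, by 0.87 ± 0.34 (adjusted p = 0.521). The most abundant, Zbtb20 at 6.03 ± 1.60, differed by -0.54. None was called with the inhibitor. None of 6 oligodendrocyte and neuronal fate genes was called in either comparison, and Olig1 was the most abundant of them at 8.33 ± 0.94 in naive astrocytes.

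**Figure D4:**
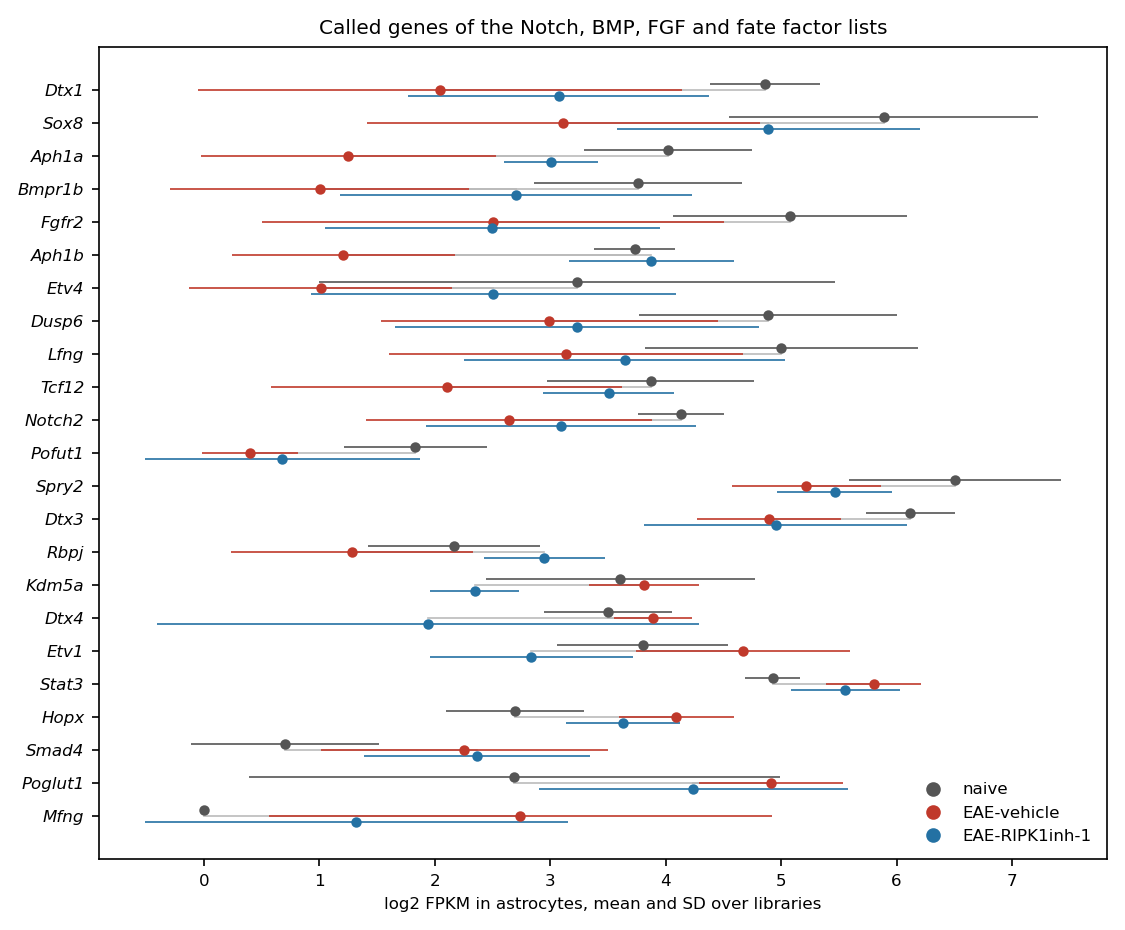
Mean log2 FPKM with SD over libraries of the 23 listed genes, other than the members, that were called in at least 1 of the EAE and inhibitor comparisons in astrocytes, ordered by the EAE difference. The means of 15 of them are lower in EAE-vehicle (red) than in naive (gray) astrocytes, and the inhibitor (blue) means of Aph1a and Aph1b lie at 3.01 and 3.88.

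Across the 15 astrocyte libraries, the levels of 2890 protein-coding genes with signal in all of them were correlated with each member that also had it. Nfib was most like Atl2 (Pearson r = 0.90) and Slc1a3 (r = 0.87), which encodes GLAST, the surface protein used to sort the cells. Id2 was most like Slc6a9 (r = 0.89), a glycine transporter, and Ddost (r = 0.89). Sox9 was most like Surf4 (r = 0.82) and Ogt (r = 0.79), Nfia like Ndufa8 (r = 0.88) and Lrpap1 (r = 0.86), Id3 like Dda1 (r = 0.84) and Uqcrc2 (r = 0.83), and Id4 like Eif5b (r = 0.85) and Specc1 (r = 0.84). The 3 groups, the cell makeup and the library quality are shared by these points, so the correlations describe the libraries.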

How the data were processed

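Sorted spinal cord astrocytes and microglia of the 3 groups of mice were profiled by RNA sequencing from amplified cDNA that does not mark strand. The authors deposited log2 FPKM values of 30952 genes, quantile-normalized over 30 libraries; the offset before the logarithm is not given in the sources used here, and all IDs matched GENCODE M21 (GRCm38). Groups came from the sample labels. Of the members, 6 (Id4, Notch1, Nfib, Nfia, Hes5 and Fgfr3) carry a flag named confounded, also set for 15717 genes, and 5 share exon bases with a gene on the other strand, from 4 (Nfia) to 1068 (Notch1).

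The 3 groups of a cell type were fitted together in limma 3.58.1 (R 4.3.3) with a mean-variance trend, over 30718 genes in astrocytes and 28958 in microglia, and all 30 libraries for comparisons between cell types. Calls needed a fold over 1.5 and p under 0.05, and Benjamini-Hochberg adjustment covered all genes. Single members were also compared by exact permutation over libraries (SciPy 1.17.1). The study's methods name a paired test, but no label pairs the libraries, so none was blocked and comparisons between cell types treated libraries as independent. The fit was checked on simulated data. Fold changes of low genes may be understated by the offset, or overstated where single libraries lack signal, and neither effect was tested. Interval estimates from counts were not possible, since the values carry no depth.

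The 10 members were the named genes of every comparison, given singly or by count and range; from each pathway list, up to 3 called genes of lowest p per direction and the most abundant one in naive astrocytes; and for each member with signal in all astrocyte libraries, the 2 genes of highest Pearson r. The members and lists were chosen with earlier results of these data known. Alternatives were a filter at a mean of 1, a larger pseudocount (4), no trend, median centering, quality weights, the number of genes with signal as a detection covariate, a replicate block, pairs of groups alone and libraries left out. A further listed gene is not reported here.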

Additional observations from a re-analysis of the deposited data

Results flagged for a closer look

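Within the 56 groups of member and condition that could be examined, 10 held a library far from the rest, where chance alone would flag about 1 in 20 groups of normally distributed values. That rate does not hold for the groups below in which nearly all libraries are at 0. Of these, 3 were in naive astrocyte replicate 2, which was lowest for Fgfr3 (3.91, nearest other 7.93), Id3 (4.54, nearest 6.58) and Sox9 (5.39, nearest 6.61). EAE-vehicle astrocyte replicate 2 was highest for Hes1 at 1.09. In microglia, EAE-vehicle replicate 3 had Hes5 at 2.90 with the next at 0.11, and the other 5 were low values beside libraries at or near 0: Sox9 at 0.81 in EAE-vehicle replicate 4 and 0.21 in naive replicate 2, Id4 at 0.14 in EAE-vehicle replicate 2 and 0.35 in naive replicate 2, and Fgfr3 at 0.26 in EAE-RIPK1inh-1 replicate 5.

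In all, 4 effects differed between astrocytes and microglia by an interaction term in limma, none with an adjusted p below 0.05. The EAE effect was lower in astrocytes by -4.23 for Fgfr3 (adjusted p = 0.0821) and -1.19 for Nfib (adjusted p = 0.242). The RIPK1inh-1 effect was higher in astrocytes by 2.69 for Fgfr3 and 1.38 for Id4 (both adjusted p = 0.948). Microglia levels of these genes were near 0.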

How the results depend on the processing

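In the EAE comparison of astrocytes, Fgfr3 (-4.82 to -2.86) and Hes1 (-4.37 to -1.79) were called lower under all 11 alternatives. Scaling to the astrocyte markers, added after seeing the data, turned Sox9 (1.03), Nfia (0.003), Nfib (0.45), Id2 (0.14), Id4 (0.20), Notch1 (0.98) and Hes5 (1.37) upward there, turned Sox9 (-0.50), Nfia (-0.52), Id2 (-0.17) and Hes1 (-0.11) downward in the inhibitor comparison and Sox9 upward (0.54) against naive; it called 3 members and 20547 genes in EAE, 9792 genes with the inhibitor, and 1 member and 7705 genes against naive, since it shifts all genes together. Without the library of fewest genes with signal in each group, Id3 turned in EAE (-0.10) and against naive (-0.15), 1 member was called with the inhibitor (Fgfr3 was lost at 1.74) and 1 in its interaction, and 1187 genes in microglia with the inhibitor. Quality weights turned Sox9 with the inhibitor (-0.023) and Id3 against naive (-0.085), called 2 members with the inhibitor in microglia, and gave 3698 genes in EAE, 3152 against naive, 1604 in the inhibitor interaction and 2730 in microglia with the inhibitor, where the main fit gave 2060, 1421, 976 and 511. A pseudocount turned Hes5 in EAE (0.17) and gave 296 genes in microglia with the inhibitor. With a mean of at least 1, members called were 1 with the inhibitor, 2 against naive and 1 in the EAE interaction, and 557 genes were called in the inhibitor interaction. This filter ended the calls of Nfib in EAE, against naive and in the EAE interaction. It also ended those of Nfia against naive and Id4 with the inhibitor. The causes were not tested.

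Replicate numbers are shared between groups, and nothing says that a number marks a shared mouse. Deviations of same-numbered astrocyte and microglia libraries correlated from -0.04 to 0.13 (1 of 15 pairs over 0.1), and 7 of 15 astrocyte libraries, not all, correlated best with their own number, which is a hint from the data and not the design. The numbers were therefore not taken to pair the libraries. With the replicate block, 1 member was called with the inhibitor (Fgfr3 was lost), Nfia was lost in EAE and against naive, Id2 was lost in microglia, Id4 was called lower in EAE, and Hes5 turned (0.40).

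Leaving out 1 library at a time, members called ran from 0 to 3 with the inhibitor, from 2 to 5 against naive and from 1 to 2 in the inhibitor interaction, and genes called in microglia with the inhibitor from 365 to 953. Differences that crossed 0, none of them called, were in EAE Hes5 (-0.61 to 0.37), Id3 (-0.040 to 0.73) and Notch1 (-1.43 to 0.13), with the inhibitor Sox9 (-0.037 to 0.47), Nfia (-0.050 to 0.41), Nfib (-0.24 to 0.014), Id3 (-0.32 to 0.0073) and Notch1 (-0.80 to 0.14), and against naive Sox9 (-0.50 to 0.086), Id3 (-0.16 to 0.62) and Id4 (-0.0077 to 0.33). With the number of genes with signal as a covariate, Id4 was called lower in EAE (-1.21) and Nfia was no longer called between the cell types with the inhibitor (1.00). Depth is unknown, so a gene listed near 0 may be present below detection.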
